A study of Mus musculus with 9 samples.

Results

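Small RNAs from the mitochondrial genome were described in 9 mouse small RNA sequencing libraries, as all alignments on the mitochondrial chromosome, on either strand, of any length and with any mismatches. These alignments began at 20047 distinct 5′ ends, of 2954434 in all libraries, and made up 0.365% to 3.67% of the mapped reads of a library. Expected counts were summed by 5′ end and length, divided by the mapped reads of the library to give counts per 1000000 mapped reads (RPMM), and assigned by the 5′ end to the mitochondrial genes. The study compared commercial preparations of the same kind of RNA. MIN6 cells, a mouse insulinoma line with beta-cell features, were grown in medium with 25 mM glucose and 10% serum. Their RNA was prepared with Illumina TruSeq and sequenced on a GAIIx (TS-GAIIx, 3 libraries), with Illumina v1.5 and sequenced on a GAIIx (v1.5-GAIIx, 3 libraries), and with NEXTflex V2 and sequenced on a HiSeq (NF-HiSeq, 1 library of other RNA made at another facility). Liver RNA from 1 C57BL/6J female mouse was prepared with TruSeq (TS-HiSeq liver) and with NEXTflex V2 (NF-HiSeq liver). The mouse was 9 weeks old at purchase, received saline through the tail vein after 10 days of acclimation, and was sampled 7 days later after an overnight fast. Saline was the only agent given, and the liver groups are thus 1 animal, while MIN6 is 1 line of tumour origin. TruSeq and v1.5 use adapters of fixed sequence that differ from each other, and NEXTflex uses adapters with degenerate bases at the ligated ends.

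Mitochondrial DNA is transcribed from both strands into long precursors that carry the rRNAs, the messages for subunits of the respiratory chain, and tRNAs placed between them. The precursors are cut at the tRNA ends, by RNase P at the 5′ side and by ELAC2 at the 3′ side, and the nucleotides CCA, which the genome does not encode, are then added to each tRNA 3′ end by TRNT1. The control region holds the promoters, and the light-strand promoter in it also starts the RNA that primes DNA replication. Liver and beta cells are both rich in mitochondria.

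The fragments on which the results turn are given here 5′ to 3′ as DNA letters, with gene sequences from GENCODE M21 (build GRCm38). In the 16S fragment, chrM:1094-1117 on the plus strand, capitals mark its 20-nt form, the commonest in TS-GAIIx, and the whole run is the 24-nt form, the commonest in the other groups. In the light-strand promoter RNA, chrM:16157-16188 on the minus strand, capitals mark the 20-nt form commonest in v1.5-GAIIx, and the bases were deduced from the letters that reads carried at mismatches. In mt-Ts2 (chrM:11613-11671), mt-Ty (chrM:5260-5326, minus strand), mt-Tv (chrM:1025-1093) and mt-Tg (chrM:9391-9458), each a whole tRNA gene, capitals mark a fragment, which is the commonest form at the first base in v1.5-GAIIx for mt-Ts2 and mt-Ty, and the 3′ part described below for mt-Tv and mt-Tg.
16S 5′ fragment: ACTAATCCTAGCCCTAGCCCtaca
light-strand promoter RNA: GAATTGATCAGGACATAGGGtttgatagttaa
mt-Ts2: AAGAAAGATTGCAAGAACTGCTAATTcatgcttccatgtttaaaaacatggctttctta
mt-Ty: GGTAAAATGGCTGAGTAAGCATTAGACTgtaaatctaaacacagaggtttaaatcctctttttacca
mt-Tv: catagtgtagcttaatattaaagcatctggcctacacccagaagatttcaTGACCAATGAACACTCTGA
mt-Tg: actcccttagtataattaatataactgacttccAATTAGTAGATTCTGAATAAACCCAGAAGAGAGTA

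The level of mitochondrial small RNA differed between preparations and between MIN6 and liver. It was 5060, 5420 and 4958 RPMM under TruSeq, 8715, 7960 and 7600 RPMM under v1.5 in the same cells, and 3651 RPMM in NF-HiSeq MIN6. In liver it was 36709 RPMM under TruSeq and 7308 RPMM under NEXTflex. The v1.5 and TruSeq libraries of MIN6 did not overlap, and the liver TruSeq library stood above all others. The v1.5 mean was 1.57 times the TruSeq mean (8092 ± 569 against 5146 ± 243 RPMM, SD, n = 3 each), with an exact two-sided permutation p = 0.1, the smallest that 3 libraries against 3 allow. Per 100 nt of gene, the level of the 22 tRNA genes together was 164 ± 26.1 RPMM under v1.5 against 38.9 ± 4.40 RPMM under TruSeq (SD, n = 3 each), that of the 2 rRNA genes was 101 ± 9.75 and 110 ± 3.70 RPMM, and that of the 13 protein genes was 1.60 ± 0.143 and 1.30 ± 0.153 RPMM in the same order. Much of the tRNA level under v1.5 came from mt-Ts2, at a mean of 1511 RPMM for the whole gene beside 106 RPMM under TruSeq. The next tRNA gene under v1.5, mt-Tf, was at 136 RPMM beside 14.5 RPMM.

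**Figure D1:**
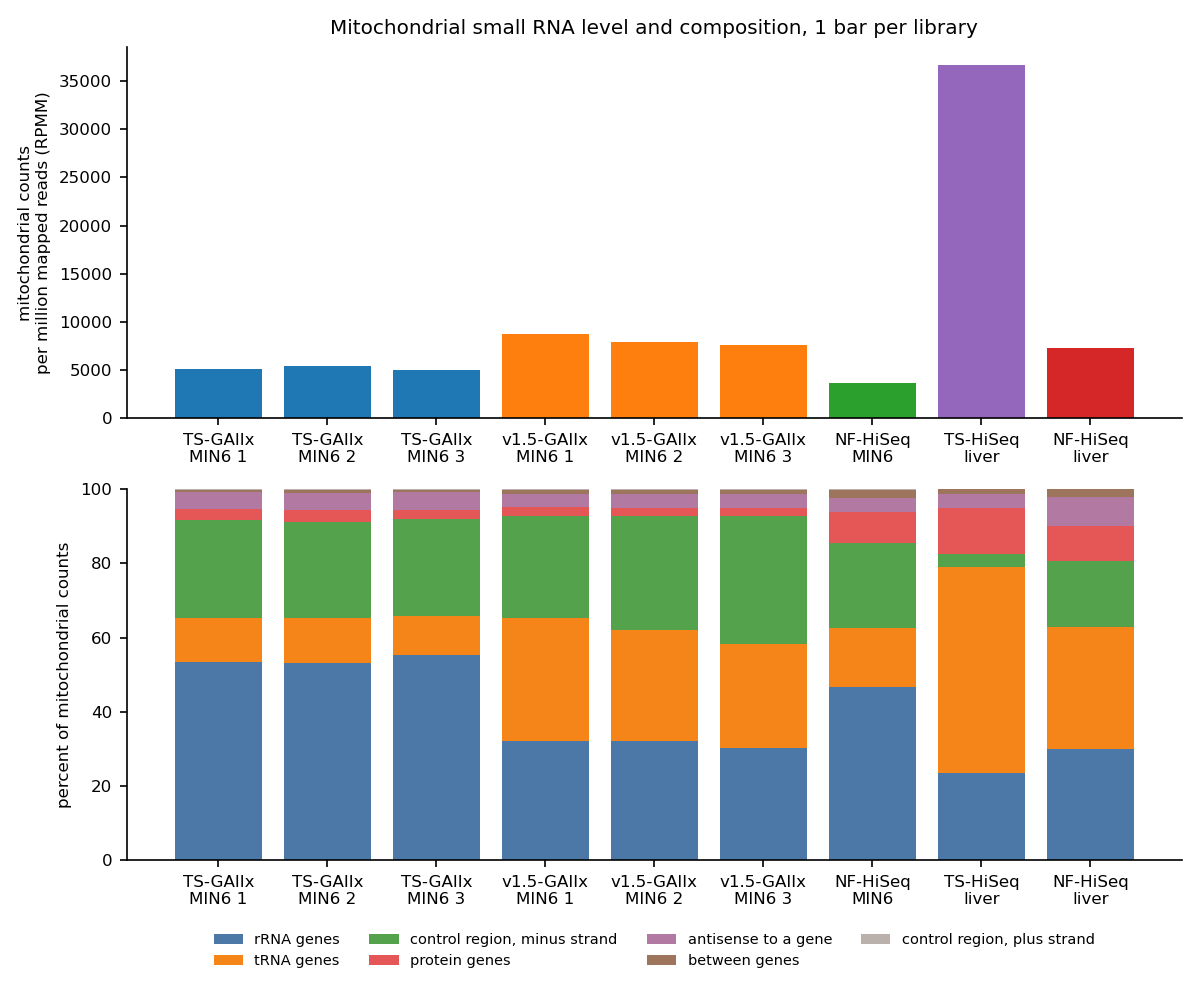
Mitochondrial counts in RPMM (top) and the percent of mitochondrial counts by class of the 5′ end (bottom), with 1 bar per library. The TS-HiSeq liver bar reaches 36709 RPMM, tRNA genes hold 55.7% of it, and rRNA genes hold 53.3% to 55.4% of the TS-GAIIx bars.

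The replicates of a group were separate libraries of MIN6 RNA, and each pair differed by more than counting noise (chi-square over degrees of freedom of 1.43 to 6.89). The libraries held 33621 to 605294 mitochondrial counts. GAIIx libraries held no alignment over 32 nt, whereas mitochondrial alignments reached 39 nt under NEXTflex and 41 nt in TS-HiSeq liver, so longer RNAs could be counted only in HiSeq libraries. The NEXTflex libraries held 25.1 and 27.4 distinct mitochondrial alignments per 1000 counts against 146 to 276 in the others, so a gene at 0 there is given only as listed at 0. The beta-cell miRNA miR-375-3p was at 64950 to 186331 RPMM in MIN6 and at 40.0 and 26.7 RPMM in liver. The hepatocyte miRNA miR-122-5p was at 17244 and 532452 RPMM in liver, at 0.150 to 2.38 RPMM in the GAIIx libraries, and at 128 RPMM in NF-HiSeq MIN6. What part of the NF-HiSeq MIN6 values below goes with that miR-122-5p was not tested.

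In MIN6, tRNA genes held a larger share and rRNA genes a smaller share of mitochondrial counts under v1.5 than under TruSeq, beside the levels per 100 nt given above. The tRNA share of mitochondrial counts was 11.7%, 11.9% and 10.4% in TS-GAIIx and 33.2%, 29.8% and 27.9% in v1.5-GAIIx. Most of that difference lay at 1 5′ end, the first base of mt-Ts2. It held 1.67%, 1.65% and 1.55% of mitochondrial counts in TS-GAIIx and 20.5%, 17.9% and 15.8% in v1.5-GAIIx. The rRNA share was 53.6%, 53.3% and 55.4% in TS-GAIIx and 32.1%, 32.1% and 30.3% in v1.5-GAIIx. Neither share overlapped between the groups, and the differences were 19 and -22.6 percentage points. Part of these counts was shared out by the authors among several places in the genome. Forms, that is reads of 1 place and spelling, whose value had a fraction in at least 1 of the 9 libraries held 36.2% to 48.1% of mitochondrial counts in the GAIIx libraries. Without these forms the tRNA shares differed by 0.0233 percentage points (exact permutation p = 1) and the rRNA shares by -5.51 points (p = 0.1 by the same exact test), so the difference in tRNA share rested on divided forms. A divided value can be a whole number by chance, so forms without a fraction may still have been divided. Protein genes held 2.88% ± 0.206 and 2.25% ± 0.0569, the minus strand of the control region 26.2% ± 0.292 and 31% ± 3.45, and positions antisense to a gene 4.70% ± 0.127 and 3.71% ± 0.136 (TS-GAIIx, then v1.5-GAIIx, SD, n = 3 each). Over all forms, each of these differences had an exact permutation p = 0.1, the smallest possible, or 0.105 after Benjamini-Hochberg adjustment over the measures compared.

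Of the 22 tRNA genes, 18 rose and 3 fell in v1.5 against TruSeq by edgeR's quasi-likelihood test (adjusted p under 0.05), with a median log2 fold change of 1.83. Of all 7306 genes and nuclear windows tested together, 58.7% passed, 32.8% as higher and 25.9% as lower, with a median log2 fold change of 0.22. With forms that had no fraction in any library, 15 tRNA genes could be tested, of which 13 rose and 1, mt-Tv, fell, beside 32.3% and 21.6% of all features tested so. The 14 tRNAs of the plus strand gave 11 higher and 2 lower, and the 8 of the minus strand gave 7 higher and 1 lower. The groups did not overlap for 21 of the 22 tRNAs, against 68.2% of all features tested. The tRNA for methionine, mt-Tm, was the member that did not pass, at 50.3, 68.6 and 38.9 RPMM under TruSeq and 42.6, 38.7 and 42.4 RPMM under v1.5.

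With all forms, the largest rises were in tRNAs for tyrosine, isoleucine and serine. mt-Ty was at 3.77, 5.59 and 2.18 RPMM in TS-GAIIx and at 75.1, 67.1 and 71.3 RPMM in v1.5-GAIIx. Its log2 fold change was 4.23 (SE 0.37, edgeR adjusted p = 0.000384). mt-Ti was at 7.31, 7.41 and 4.56 RPMM under TruSeq and at 141, 95.9 and 79.6 RPMM under v1.5, with the groups well apart, a log2 fold change of 4.03 (SE 0.33) and an edgeR adjusted p = 0.000293. mt-Ts2, a serine tRNA that lacks the D-arm and the tRNA gene with the most counts under v1.5, was at 108, 117 and 93.5 RPMM under TruSeq and at 1832, 1462 and 1239 RPMM under v1.5, with a log2 fold change of 3.83 (SE 0.18) and an edgeR adjusted p = 5.5e-05. Without divided forms, that of mt-Ts2 was 1.05 (edgeR adjusted p = 0.0268), below the median of 2.16 over the 15 tRNA genes tested so. mt-Tf and mt-Tq, for phenylalanine and glutamine and next in counts under v1.5, had log2 fold changes of 3.23 and 2.38.

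The 3 tRNAs that fell were mt-Tw, mt-Tv and mt-Ts1, for tryptophan, valine and serine. mt-Tv, the tRNA gene with the most counts in TS-GAIIx, was at 213, 213 and 188 RPMM there and at 59.0, 53.7 and 53.1 RPMM in v1.5-GAIIx. It fell by 1.89 on the log2 scale (SE 0.09, edgeR adjusted p = 4.8e-05). mt-Tw was at 17.6, 19.3 and 23.7 RPMM against 4.74, 5.03 and 3.86 RPMM, which also left a wide gap, and fell by 2.15 (SE 0.19, edgeR adjusted p = 0.000383), and it had too few counts to be tested without divided forms. mt-Ts1 was at 47.1, 52.1 and 39.5 RPMM against 35.5, 28.1 and 22.9 RPMM, and its log2 fold change of -0.68 (edgeR adjusted p = 0.0301) no longer passed without TruSeq library 1 or 2 or v1.5 library 2 or 3 (edgeR adjusted p of 0.0547 to 0.0895). mt-Ts1 too had too few counts without divided forms.

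**Figure D2:**
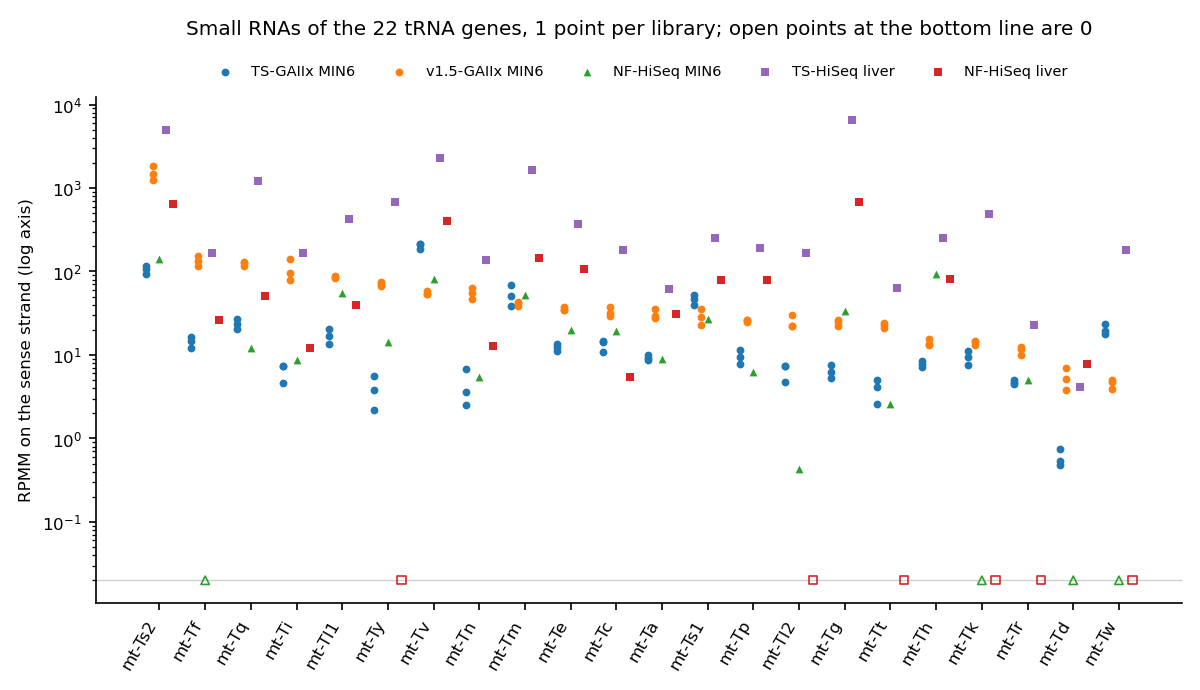
Sense-strand RPMM on a log axis for the 22 tRNA genes, ordered by their v1.5 mean, with 1 point per library and open points at the bottom line for libraries at 0. The v1.5 points lie above the TruSeq points of MIN6 in 18 tRNAs that passed the test, and mt-Tv, mt-Tw and mt-Ts1 lie the other way round.

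Fragments of the tRNAs began mostly at the first base of the tRNA under v1.5 and not under TruSeq. Of counts in tRNA genes, 34%, 35.9% and 31.5% in TS-GAIIx and 85.8%, 84.6% and 82.7% in v1.5-GAIIx started within 2 nt of the annotated 5′ end. The share that ended at the tRNA 3′ end, with or without CCA, was 27.8%, 25.5% and 27.5% in TS-GAIIx and 4.28%, 4.35% and 4.84% in v1.5-GAIIx. The groups were far apart in both measures, by 50.6 and -22.4 percentage points (exact permutation p = 0.1 each). With exact alignments alone, which leave out reads with CCA, the second difference was -0.875 points. Both shares pool the tRNAs, and mt-Ts2, with the most counts under v1.5, had a 3′ share of 0.319% to 0.357% there. Within single tRNAs the 3′ share went both ways. In mt-Tv it was 49.3% to 54.6% in TS-GAIIx and 37.8% to 40.4% in v1.5-GAIIx. In mt-Tg it was 26.9% to 31.4% and 39.7% to 44.3%. Of the 22 single 5′ ends at a tRNA's first base, 20 had at least 60 counts, and 17 of these rose and 1, that of mt-Ts1, fell under v1.5. The ends of mt-Tg and mt-Th had fewer counts. Among all 16970 5′ ends tested, 76% passed, 47.5% as higher, and the median log2 fold change was 0.76.

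The 5′ end of mt-Ts2 carried most of the v1.5 tRNA counts. It was at 84.3, 89.2 and 77.1 RPMM in TS-GAIIx and at 1789, 1424 and 1204 RPMM in v1.5-GAIIx, 17.6 times the TruSeq mean (log2 fold change 4.14, SE 0.17, edgeR adjusted p = 1.33e-05). Its commonest form was a 19-nt exact match in TS-GAIIx (53.7% of the counts of this end) and the 26-nt form in capitals above in v1.5-GAIIx (37.5%). Forms with a fraction in any library held 98.9% to 100% of its counts in these libraries, so nearly all of them had been divided among several places. The first base of mt-Ty was at 1.51, 2.34 and 0.633 RPMM under TruSeq and at 66.0, 57.8 and 61.9 RPMM under v1.5, 41.5 times as high. The 28-nt form in capitals above held 28.5% of the counts of this end in v1.5-GAIIx, and a 31-nt exact match was the commonest form in TS-GAIIx and TS-HiSeq liver. Divided forms held 93.8% to 100% of the counts of this end in the GAIIx libraries. Among the 6 tRNAs with at least 100 counts in every library, mt-Ts2 had the highest share of 5′ fragments as a mean over all libraries (91.6%) and mt-Tv the highest mean share of 3′ fragments (56.2%). In TS-GAIIx the 5′ share was higher in mt-Ts1, at 92.8%, 94.1% and 92.0% against 80.4%, 78.2% and 85.0% in mt-Ts2. In NF-HiSeq MIN6 mt-Tq (100%) and mt-Ts1 (89.5%) stood above mt-Ts2 (87.8%), which led in the v1.5-GAIIx and liver libraries.

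The 3′ fragments of mt-Tv and mt-Tw went the other way. The fragment of the last 19 bases of mt-Tv (capitals above) was read with CCA as tgaccaatgaacactctgaCCA, in which capitals mark the added bases. Its 5′ end was at 75.7, 63.5 and 68.2 RPMM in TS-GAIIx and at 1.87, 2.11 and 1.73 RPMM in v1.5-GAIIx, where it was 36.3 times lower (log2 fold change -5.17, SE 0.14, edgeR adjusted p = 5.21e-06). The CCA form made up 94.3% to 95.2% of its counts under TruSeq and 97.7%, 55.6% and 55.6% under v1.5. The last 18 bases of mt-Tw, a tRNA read from chrM:4950-5016, gave a 5′ end at 6.76, 5.67 and 11.2 RPMM under TruSeq and at 0.0595, 0.147 and 0.140 RPMM under v1.5, 68.3 times lower. Divided forms held 100% of the counts of this end in each of the 6 libraries.

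**Figure D3:**
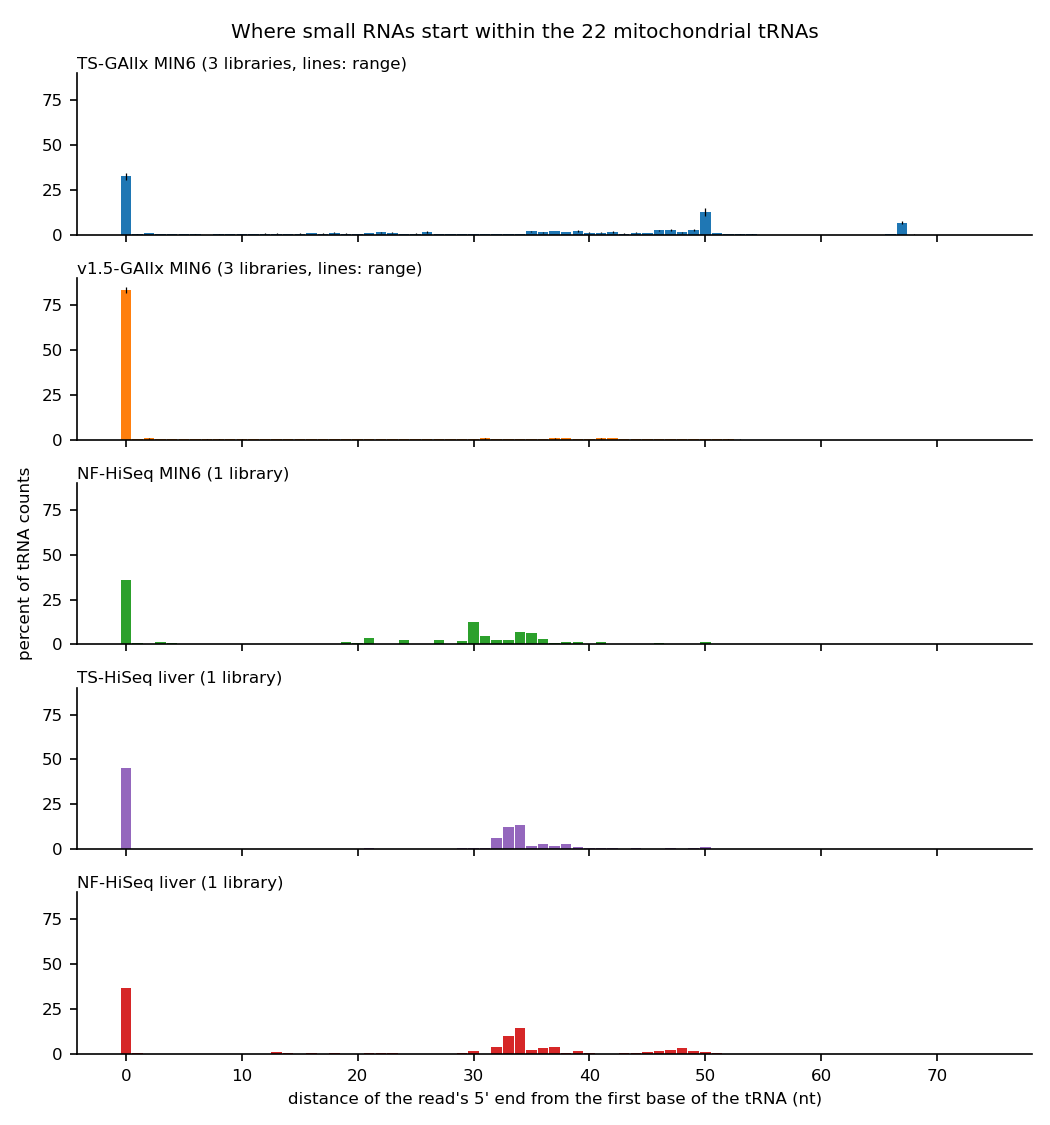
Percent of counts in tRNA genes by the distance of the read's 5′ end from the first base of the tRNA in nt, with 1 panel per group, bars for means and black lines for the range of 3 libraries. The bar at distance 0 holds most v1.5-GAIIx counts, TS-GAIIx has a further bar at 50 nt, where the mt-Tv fragment starts, the liver libraries have bars at 33 and 34 nt, and NF-HiSeq MIN6 has its highest bar past the start at 30 nt.

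Among rRNAs, the 16S gene mt-Rnr2 (chrM:1094-2675) did not pass the test, while the 12S gene mt-Rnr1 (chrM:70-1024) rose under v1.5. mt-Rnr2 was at 2556, 2719 and 2605 RPMM in TS-GAIIx and at 2529, 2320 and 2086 RPMM in v1.5-GAIIx (log2 fold change -0.18, SE 0.08, edgeR adjusted p = 0.0832). Without divided forms mt-Rnr2 passed as higher (log2 fold change 0.62, edgeR adjusted p = 0.00189), while with all forms it passed as lower with exact alignments only (-0.21), under TMM factors (-0.32) and DESeq2 size factors (-0.28), by DESeq2, and without v1.5 library 1 (-0.25, edgeR adjusted p = 0.023). mt-Rnr1 was at 154, 169 and 143 RPMM against 270, 239 and 219 RPMM, with no overlap, a log2 fold change of 0.65 (SE 0.11) and an edgeR adjusted p = 0.00357. Within 16S, the place of the fragments changed. Reads starting within 2 nt of the gene start held 71.3%, 71.3% and 73.1% of its counts in TS-GAIIx and 36.7%, 39.7% and 43.6% in v1.5-GAIIx. The last 50 nt of the gene held 3.00% to 3.67% and 23.1% to 29.9%.

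The first base of 16S was the most abundant mitochondrial 5′ end in TS-GAIIx and NF-HiSeq MIN6 and in NF-HiSeq liver. It was at 1822, 1937 and 1904 RPMM in TS-GAIIx and at 927, 921 and 909 RPMM in v1.5-GAIIx, with no overlap and a 2.05-fold higher TruSeq mean (log2 fold change -1.04, SE 0.04, edgeR adjusted p = 1.25e-05). Divided forms held 65.9% to 70.4% of its counts in TS-GAIIx and 37.7% to 37.8% in v1.5-GAIIx, and without them the difference did not pass (-0.066, edgeR adjusted p = 0.427). It was at 693 RPMM in NF-HiSeq MIN6, 4493 RPMM in TS-HiSeq liver and 1253 RPMM in NF-HiSeq liver. Its 20-nt form held 31.3% to 33.5% of its counts in TS-GAIIx and 19.8% to 20.5% in v1.5-GAIIx, and its 24-nt form held 20.2% to 21.7% and 37% to 38.7%. At the other end of 16S, the fragment cgtacaccctctaacctagagaaggtt at chrM:2649-2675, which is the end of the gene, began at 1.66, 1.17 and 1.33 RPMM under TruSeq and at 194, 138 and 119 RPMM under v1.5, 108 times as high. This 5′ end, those of mt-Tm, mt-Ty, mt-Nd6, mt-Co1 and the antisense strand, base 2470 and the second mt-Tg end were chosen after their values were seen.

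Of the 13 protein genes, 4 rose in v1.5 and the other 9 did not pass, with a median log2 fold change of -0.05. The share that rose was thus near the 32.8% of all genes and windows, and none fell, beside 25.9% of all. In complex I, mt-Nd3 and mt-Nd6 rose among 7 genes. In complex IV, mt-Co1 rose among 3. In complex V, mt-Atp8 rose among 2, and the only complex III gene, mt-Cytb, did not pass. mt-Nd3 was at 8.39, 8.22 and 10.1 RPMM in TS-GAIIx and at 33.5, 26.5 and 22 RPMM in v1.5-GAIIx (log2 fold change 1.61, edgeR adjusted p = 0.00126), and 78.8% to 92.8% of its counts in these libraries started at the gene's first bases. mt-Co1, a subunit of cytochrome oxidase and the protein gene with the most counts in TS-GAIIx, v1.5-GAIIx and TS-HiSeq liver, was at 29.9, 32.2 and 27.8 RPMM against 49.1, 41.9 and 38.3 RPMM (log2 fold change 0.52, edgeR adjusted p = 0.0175), and missed the threshold when TruSeq library 1 (0.0534) or 3 (0.0545) was left out. mt-Nd6 rose by 0.81 (edgeR adjusted p = 0.0394) and kept its call only when TruSeq library 2 was the one left out, with edgeR adjusted p of 0.0627 to 0.110 when any other was.

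The light-strand promoter RNA was the most abundant mitochondrial 5′ end under v1.5. It was at 1138, 1176 and 1093 RPMM in TS-GAIIx and at 1990, 2043 and 2198 RPMM in v1.5-GAIIx, 1.83 times the TruSeq mean with no overlap (log2 fold change 0.87, SE 0.06, edgeR adjusted p = 4.71e-05). It was at 334 RPMM in NF-HiSeq MIN6, at 973 RPMM in TS-HiSeq liver and at 608 RPMM in NF-HiSeq liver. With it, the minus strand held 32.5%, 32.5% and 32.1% of mitochondrial counts in TS-GAIIx and 35.9%, 39.0% and 43.1% in v1.5-GAIIx. The minus-strand share was 33.3% in NF-HiSeq MIN6, 15.1% in TS-HiSeq liver and 35.6% in NF-HiSeq liver.

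Small RNAs antisense to a gene were less abundant, and by group mean the highest of them in TS-GAIIx, v1.5-GAIIx and NF-HiSeq MIN6 lay opposite mt-Ti. That feature was at 56.7, 66.0 and 63.5 RPMM in TS-GAIIx and at 36.9, 43.2 and 39.8 RPMM in v1.5-GAIIx (log2 fold change -0.63, SE 0.11, edgeR adjusted p = 0.00386). Most of it began at base 3771 of the minus strand, next to the 3′ end of mt-Tq, which is read from chrM:3772-3842 on that strand. Of the 25 antisense features tested, 12 rose and 2 fell, beside 32.8% and 25.9% of all genes and windows, with a median log2 fold change of 0.57. The highest antisense feature was opposite mt-Tp in TS-HiSeq liver (262 RPMM) and opposite mt-Tm in NF-HiSeq liver (121 RPMM).

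Of the mitochondrial 5′ ends, 314 of 13592 seen in the GAIIx libraries had at least 60 counts, and these held 87.5% of the counts. By edgeR, 226 of the 314 passed, 177 as higher and 49 as lower in v1.5, a share of 72% beside the 76% of all 5′ ends. The groups did not overlap for 242 of the 314, beside 80.7% of all 5′ ends. With TMM factors the split was 141 higher and 63 lower, and with DESeq2 size factors 133 and 64, since these factors moved the median log2 fold change of all 5′ ends from 0.76 to 0.31 and 0.27. In tRNA genes, 63 rose and 24 fell of 105, and in rRNA genes 56 rose and 14 fell of 106, beside 47.5% and 28.5% of all 5′ ends.

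The largest fall was at base 1092 of the plus strand, 2 nt before 16S. It was at 35.6, 37.8 and 39.7 RPMM in TS-GAIIx and at 0, 0.0838 and 0 RPMM in v1.5-GAIIx, from 1 count there. In TS-GAIIx 99.2% of its counts carried the mismatch A2G, the genome base, the position from 1 at the read's 5′ end, and the read base, so that these reads began with a pair of G before the 16S sequence. The largest fitted log2 fold changes among rises were at base 355 in mt-Rnr1, base 2651 in mt-Rnr2 and base 48 in mt-Tf, an order that for bases 355 and 48 rests on a TruSeq group at 0. Base 355 was at 0 in each TruSeq library and at 5.47, 4.11 and 2.79 RPMM under v1.5, and base 48 was at 0 and at 2.15, 2.57 and 4.04 RPMM. Against 3 counts over the TruSeq group, these are at least 35.1-fold and at least 24.9-fold higher. Base 2651 was at 0.150, 0.146 and 0 RPMM against 33.9, 23.0 and 19 RPMM.

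**Figure D4:**
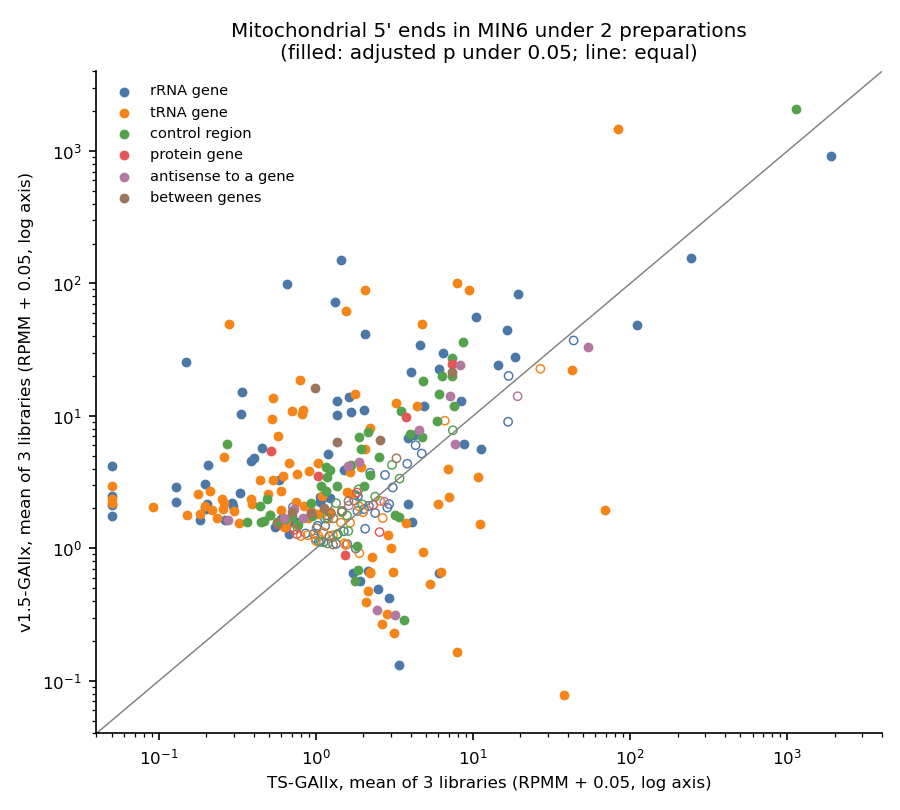
Mean RPMM of the 314 tested mitochondrial 5′ ends in v1.5-GAIIx against TS-GAIIx on log axes with 0.05 added, coloured by class, filled where the edgeR adjusted p was under 0.05, with a line of equal values. The 177 ends that rose lie above the line, and the rRNA point farthest right, below it, is the first base of 16S.

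Mitochondrial small RNAs were longer under v1.5 than under TruSeq, and, with all lengths counted, longer again in the HiSeq libraries, which reached beyond the GAIIx range. The mean length was 21.6, 22 and 21.3 nt in TS-GAIIx, 23.6, 23.2 and 23.5 nt in v1.5-GAIIx, 26.4 nt in NF-HiSeq MIN6, 30.4 nt in TS-HiSeq liver and 28 nt in NF-HiSeq liver. Counts of 28 nt and longer were 5.56%, 8.90% and 3.15% in TS-GAIIx and 17.8%, 15.7% and 18.3% in v1.5-GAIIx, without overlap, a difference of 11.4 percentage points. Within tRNA genes alone, the difference was 1.24 points (exact permutation p = 0.9). They were 40.5%, 62.1% and 46.5% of mitochondrial counts in the HiSeq libraries in the same order. Counts of 33 nt or longer, beyond the GAIIx range, were 20.9%, 44.5% and 29.4% of mitochondrial counts there. Counts of 14 to 17 nt were 9.85%, 9.57% and 9.99% in TS-GAIIx and 8.26%, 9.23% and 7.28% in v1.5-GAIIx, a difference of -1.55 points. The sign of that difference turned when only exact alignments were kept, and within tRNA genes alone it was -7.76 points. The commonest length in tRNA genes was 22 nt in TS-GAIIx, 26 nt in v1.5-GAIIx, 37 nt in NF-HiSeq MIN6 and 38 nt in both liver libraries.

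**Figure D5:**
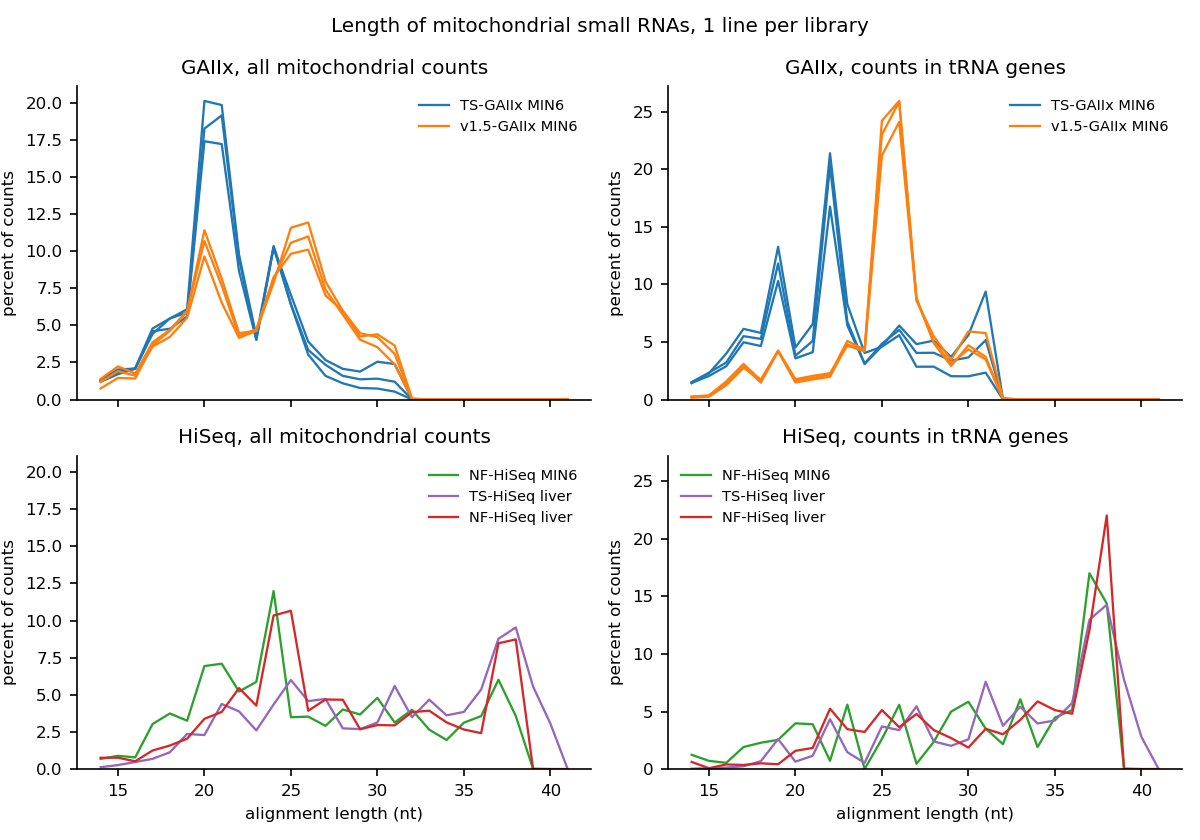
Percent of counts by alignment length in nt for all mitochondrial counts (left) and counts in tRNA genes (right), GAIIx libraries above and HiSeq libraries below, with 1 line per library. TS-GAIIx peaks at 20 and 21 nt, tRNA counts of v1.5-GAIIx peak at 26 nt, and tRNA counts of the HiSeq libraries peak at 37 and 38 nt.

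Liver held more mitochondrial small RNA than MIN6 under each preparation that covered both, with 1 liver library against 3 or 1 of MIN6 and hence no test. Under TruSeq the liver level was 7.13 times the MIN6 mean, and 3.71 times for counts of 31 nt and shorter. The TruSeq comparison also sets a HiSeq library against GAIIx libraries run at NIH. The paper names a Norgen kit for the liver RNA and TRIzol for RNA extracted at NIH. Tissue, platform and RNA extraction thus cannot be told apart. Under NEXTflex, both on a HiSeq, the liver level was 2.00 times that of MIN6. There miR-122-5p took 532452 RPMM in liver and 128 RPMM in MIN6. What part of this ratio goes with it was not tested. Per 100 nt of gene, the tRNA genes were at 1361 RPMM in TS-HiSeq liver, 160 RPMM in NF-HiSeq liver and 39.2 RPMM in NF-HiSeq MIN6, and the rRNA genes at 339, 86.6 and 67 RPMM. In these tissue comparisons, more RNA per cell and more cells of a type cannot be told apart.

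In the TruSeq comparison, 20 of the 21 tRNA genes with at least 5 RPMM in either tissue were over 5-fold higher in liver, where 51% of all genes and windows were, with a median log2 ratio of 4.51 for the tRNAs against 2.42 for all. Restricted to 31 nt and shorter, 16 of 21 were over 5-fold higher, where 40.8% of all genes and windows were, and the median ratio over the 22 tRNAs was 9.42 in place of 25.5. Under NEXTflex, 5 of 17 tRNAs were over 5-fold higher and 1, listed at 0 in liver, lower, beside 42.8% and 36.5% of all features, and the median log2 ratio was 1.68 against 0.86. Those higher were mt-Tg, mt-Tp and mt-Te, for glycine, proline and glutamate, and mt-Tf and mt-Td, listed at 0 in MIN6. The 13 protein genes were each over 5-fold higher in liver under TruSeq. Under NEXTflex 3 were higher and 1, mt-Nd3, was over 5-fold lower in liver, at 0.0348 RPMM against 10.6 RPMM in MIN6.

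The tRNA for glycine had the most counts of the tRNA genes in both liver libraries, at 6521 RPMM under TruSeq and 679 RPMM under NEXTflex. It was at 33.6 RPMM in NF-HiSeq MIN6, at 6.25, 7.68 and 5.29 RPMM in TS-GAIIx and at 26.6, 22.5 and 24.6 RPMM in v1.5-GAIIx. The liver reads ended at the tRNA 3′ end (98.0% and 99.6% of mt-Tg counts) and began mostly at bases 34 and 35, just after the anticodon. The first of these was read as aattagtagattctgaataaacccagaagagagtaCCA, of 38 nt with the added CCA in capitals, a form that made up 93.1% and 94.5% of the counts of that 5′ end in liver. The 5′ end was at 2262 RPMM in TS-HiSeq liver, 240 RPMM in NF-HiSeq liver and 7.0 RPMM in NF-HiSeq MIN6, and the next end, base 9425, was at 2045, 176 and 17.5 RPMM. Divided forms held 98.4% of the counts of the first end in TS-HiSeq liver, 99.3% in NF-HiSeq liver and 100% in NF-HiSeq MIN6, and 90.3%, 99.2% and 75.8% of those of the next end. The form was too long for GAIIx libraries, which held 0.216 to 1.01 RPMM of shorter reads at its 5′ end.

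Fragments that began 28 to 42 nt into a tRNA and ended at its 3′ end came to 8788 RPMM in TS-HiSeq liver, 972 RPMM in NF-HiSeq liver and 163 RPMM in NF-HiSeq MIN6. mt-Tg made up 72.0% and 69.6% of them in liver. In NF-HiSeq MIN6 the highest was mt-Th, the tRNA for histidine, with 62.8 RPMM, close to its 59.6 and 60.9 RPMM in the liver libraries. Among 5′ fragments, the methionine tRNA gave 1536 RPMM at its first base in TS-HiSeq liver, 144 RPMM in NF-HiSeq liver and 43.5 RPMM in NF-HiSeq MIN6, beside 14.2 to 41.7 RPMM in the 6 GAIIx libraries. In the NEXTflex libraries part of these carried CCA after base 32 of mt-Tm, within the anticodon, as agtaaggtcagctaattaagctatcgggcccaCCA with the bases that the genome does not encode at that place in capitals. That form was 24.2% of the counts of the end in NF-HiSeq MIN6, 18.4% in NF-HiSeq liver and 0.920% in TS-HiSeq liver.

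In MIN6, NEXTflex gave 0.710 times the TruSeq mean and 0.451 times the v1.5 mean, with preparation, RNA, its extraction, platform and facility all different, so these cannot be told apart. Of 19 tRNA genes, 1 was over 5-fold higher than under TruSeq, mt-Th at 93.2 RPMM against 7.16 to 8.37 RPMM, and 4 were lower, beside 42.8% and 25.2% of all features. Against v1.5, 1 of 21 tRNA genes was higher and 9 were lower, beside 40.2% and 27.6%. In each of these counts, 3 of the lower tRNAs were listed at 0 under NEXTflex. With 31 nt and shorter alone, no tRNA was over 5-fold higher under NEXTflex than under either, and mt-Th was at 21.9 RPMM.

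The same liver RNA gave different profiles under NEXTflex and TruSeq. The mitochondrial level under NEXTflex was 0.199 times that under TruSeq, from 1 library each, and 0.255 times for 31 nt and shorter. RPMM is a share of all mapped reads, and miR-122-5p alone took 532452 RPMM under NEXTflex and 17244 RPMM under TruSeq. What part of the lower mitochondrial values under NEXTflex goes with that was not tested. Of 22 tRNA genes, 16 were over 5-fold lower under NEXTflex, 6 of them listed at 0 there, and none higher, where 36% of all features were lower and 32.4% higher, with a median log2 ratio of -3.36 against -0.60. Of 13 protein genes, 12 were over 5-fold lower and 1, mt-Nd6, was over 5-fold higher. mt-Nd6, the protein gene on the minus strand and a subunit of complex I, was at 349 RPMM under NEXTflex and 39.6 RPMM under TruSeq in liver, and at 119 RPMM in NF-HiSeq MIN6 beside 3.15 to 5.6 RPMM in TS-GAIIx and at 6.67 to 8.48 RPMM in v1.5-GAIIx.

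Most mt-Nd6 counts under NEXTflex came from a single 5′ end, the first base of the gene at position 14070. The RNA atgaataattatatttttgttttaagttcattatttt, of 37 nt at chrM:14034-14070 on the minus strand and beginning with the start codon, held 98.0% and 97.7% of the counts of this end in NF-HiSeq MIN6 and NF-HiSeq liver. The end was at 73.9 and 256 RPMM there, at 2.21 RPMM in TS-HiSeq liver, and at 0.166 to 1.99 RPMM in the GAIIx libraries, which hold no RNA of that length. mt-Co1 went the other way in liver, at 1575 RPMM under TruSeq and 82.4 RPMM under NEXTflex, of which one 5′ end, base 412 of the gene, gave 472 and 6.91 RPMM, mostly as a 36-nt exact match.

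The bases that reads carried beyond the genome differed by class. Of tRNA 3′ fragments, 86.4%, 85.1% and 87.9% carried the full CCA in TS-GAIIx, 68.4%, 69.8% and 68.1% in v1.5-GAIIx, 48.5% in NF-HiSeq MIN6, 93.6% in TS-HiSeq liver and 86.3% in NF-HiSeq liver. These shares pool the tRNAs, and within single tRNAs the share with CCA just after the gene went both ways. In mt-Tv it was 92.4% to 95.6% in TS-GAIIx and 59.1% to 63.0% in v1.5-GAIIx. In mt-Tf, with few counts in TS-GAIIx, it was 68.7% to 77.8% and 90.6% to 95.2%. The light-strand promoter RNA ended in a mismatched A in 26.6% to 28.7% of its counts in the GAIIx libraries, in 49.8% in NF-HiSeq MIN6, and in 29.7% and 28.3% in the TruSeq and NEXTflex liver libraries. A mismatched C ended 35.4%, 32% and 34% of it in TS-GAIIx and 16.6%, 18.2% and 18.4% in v1.5-GAIIx, without overlap, and 7.70%, 3.54% and 0.0229% in NF-HiSeq MIN6, TS-HiSeq liver and NF-HiSeq liver. A mismatched G or T ended at most 0.225% of it in every library.

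A site within 16S showed a mismatch in nearly all reads of MIN6. Reads that began at base 2469 had the commonest form of 18 nt with T16A in TS-GAIIx (43.2%) and v1.5-GAIIx (39.9%), on the genome sequence taatggttcgtttgttca, and those beginning at base 2470 had T15A at the same genome base, 2484. The first of these ends was at 240, 239 and 248 RPMM in TS-GAIIx and at 141, 163 and 158 RPMM in v1.5-GAIIx (log2 fold change -0.65, SE 0.08, edgeR adjusted p = 0.000454), and the sign turned with exact alignments alone (0.064), which leave out the reads with the mismatch. Over all plus-strand reads that reached 2 nt past base 2484, A stood there in 95.3%, 96.1% and 95.5% of counts in TS-GAIIx, in 94.9%, 94.8% and 95.6% in v1.5-GAIIx and in 95.3% in NF-HiSeq MIN6. It stood there in 58.5% of 598 counts in TS-HiSeq liver and in 0 of 108 counts in NF-HiSeq liver, which allows a share of up to 2.78%, all of them 1 form. Without the reads that began at 2469 and 2470, A stood there in 84.5% to 92.5% of counts in the GAIIx libraries (from 8 to 17 other 5′ ends) and 49.4% in TS-HiSeq liver (from 28), and in 0 of 12 counts, from 1 other end, in NF-HiSeq MIN6. This site was chosen after its values were seen, and whether all these reads came from the mitochondrial genome was not tested.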

How the data were processed

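Small RNA libraries were described from deposited alignment lists, 1 for each of the 9 libraries. The authors trimmed adapters with cutadapt (overlap of at least 10 nt, error rate 0.1), removed a further 4 nt from each read end under NEXTflex, aligned reads to mm9 with Bowtie and deposited expected counts per distinct alignment, with reads that fit more than 1 place divided among those places. Versions of the aligner and trimmer were not given in the sources used here. RNA had an integrity number of at least 8. The paper names a Norgen kit for RNA of UNC and of liver, and TRIzol for RNA of NIH. The GAIIx libraries were run at NIH, and NF-HiSeq MIN6 shared its RNA with a TruSeq library run at UNC.

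Counts on the mitochondrial chromosome were summed by strand, 5′ end and length and divided by the mapped reads that the study gives for each library. The files held 6923460 to 25638871 counts in all. An alignment was taken to end, counted from 0, at its printed end on lines without mismatches and 1 base earlier on the others, because the files write the end in these ways, and not as planned. Genes came from GENCODE M21 (GRCm38), since none of the mitochondrial mismatch letters within genes equalled the GRCm38 base at its position. A 5′ end within 2 nt of the tRNA start made a 5′ fragment, and a 3′ end from 1 nt before to 3 nt after the tRNA end made a 3′ fragment.

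Both GAIIx groups were compared with edgeR 4.0.16 (quasi-likelihood test, R 4.3.3) on rounded counts with mapped reads as library sizes, over 2 tables: genes with nuclear windows of 1000 bp, and all 5′ ends, each with at least 60 counts in the 6 libraries. Shares and levels were compared with exact two-sided permutation tests (SciPy 1.17.1), with Benjamini-Hochberg adjustment over 20 measures. Groups of 1 library were compared by ratios (5 RPMM or more in either group, 1 added, over 5-fold), with no test. Intervals and floors cover counting error only, since reads carried no molecular identifiers. The 95% Wilson interval of the tRNA share was 15.9% to 16.3% in NF-HiSeq MIN6, 55.5% to 55.8% in TS-HiSeq liver and 32.5% to 33.1% in NF-HiSeq liver. Genes and ends were named by rank of level, fold change or fragment share. The members and lists were chosen with earlier results of these data known.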

Additional observations from a re-analysis of the deposited data

Results flagged for a closer look

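Among the measures and the genes chosen for naming, 19 values under NEXTflex lay to opposite sides of TruSeq in MIN6 and in liver, with every TS-GAIIx library on 1 side of the NF-HiSeq library. With counts of 31 nt and shorter alone, which GAIIx libraries could hold too, 12 of the 19 remained. The tRNA share was then 10.5% in NF-HiSeq MIN6, within the TruSeq range, and the share of the control region's minus strand, mt-Ts2, mt-Cytb, mt-Tg and mt-Ty did not keep the pattern either, while counts that ended in CCA with a mismatch turned to 2.60% against 3.61% to 3.98% in MIN6 and 7.12% against 6.59% in liver. The difference between the tissues was not tested, since there was 1 library a group outside TS-GAIIx, and platform and RNA also differed in MIN6. NEXTflex lay above TruSeq in MIN6 and below it in liver for the tRNA share of mitochondrial counts, at 16.1% against 10.4% to 11.9% in MIN6 and 32.8% against 55.6% in liver. The same held for the protein gene share (8.14% against 2.67% to 3.08%, and 9.62% against 12.4%), for counts of 28 nt and longer (40.5% against 3.15% to 8.90%, and 46.5% against 62.1%), and for the mean length (26.4 nt against 21.3 to 22 nt, and 28 nt against 30.4 nt). It also held for the share of tRNA counts at the tRNA 5′ end (36.9% against 31.5% to 35.9%, and 37.4% against 45.5%) and for counts that ended in CCA with a mismatch (6.06% against 3.61% to 3.98%, and 18.4% against 26.5%).

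Of 32 mitochondrial genes with at least 5 RPMM under either preparation in both tissues, 15 lay above TruSeq in MIN6 and below it in liver under NEXTflex, and none the other way round, beside 22.1% and 4.36% of 1559 genes and windows. With 31 nt and shorter alone it was 8 of 29, beside 15.6% of 1483. Among the named genes, mt-Tg, the glycine tRNA, was at 33.6 RPMM under NEXTflex in MIN6, above its TruSeq values, and at 679 RPMM against 6521 RPMM in liver. mt-Ts2 was at 143 RPMM against 93.5 to 117 RPMM in MIN6 and at 639 against 4936 RPMM in liver. The 12S gene mt-Rnr1 was at 482 RPMM against 143 to 169 RPMM in MIN6 and at 470 against 1639 RPMM in liver. mt-Th, mt-Ti, mt-Ty, mt-Co1, mt-Cytb and mt-Nd3 went the same way, and their NEXTflex levels in MIN6 were 93.2 RPMM for mt-Th, 8.63 RPMM for mt-Ti, 14.5 RPMM for mt-Ty, 66.0 RPMM for mt-Co1, 23.7 RPMM for mt-Cytb and 10.6 RPMM for mt-Nd3.

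NEXTflex lay below TruSeq in MIN6 and above it in liver for the rRNA share (46.6% against 53.3% to 55.4%, and 30.1% against 23.5%), the share of the control region's minus strand (22.9% against 26% to 26.5%, and 17.7% against 3.52%), the antisense share (3.90% against 4.57% to 4.82%, and 7.62% against 3.62%) and counts of 14 to 17 nt (5.4% against 9.57% to 9.99%, and 3.31% against 1.56%).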

How the results depend on the processing

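The higher tRNA and lower rRNA shares, and the higher 5′ and lower 3′ shares of tRNA fragments, in v1.5 kept their sign under each alternative run, but not their size. With forms that had no fraction in any library alone, an alternative added after seeing the data, the difference was 0.0233 points for the tRNA share (exact permutation p = 1) and -5.51 for the rRNA share. With the whole-number values of each library alone, which keep or drop a divided form by its value in that library, the differences were 9.25 points for tRNA, -15.1 for rRNA and -0.331 for protein genes, and with exact alignments alone that of tRNA 3′ fragments was -0.875 points. Within tRNA genes the difference in counts of 28 nt and longer was 1.24 points (exact permutation p = 0.9) and that of 14 to 17 nt was -7.76 points. Of 149 alternative values of the comparisons, 131 kept their direction and side of the threshold, stayed within the spread between libraries or, for counts of calls, within 1.5 times. Of 597 for 42 single genes and 5′ ends, 551 kept their direction and call, 22 lost the call and 11 gained it. With 1 MIN6 library left out at a time, v1.5 minus TruSeq ranged from 0.60 to 0.70 for log2 RPMM and, in percentage points, from 17.5 to 20.1 for tRNA, -23.0 to -21.9 for rRNA, -0.732 to -0.526 for protein genes, 5.07 to 8.66 for the minus strand, -2.03 to -1.06 for 14 to 17 nt, 10.0 to 12.9 for 28 nt and longer, 49.4 to 51.6 for tRNA 5′ fragments and -23.1 to -22.0 for tRNA 3′ fragments. The genes called ranged from 22 to 26 and the 5′ ends called from 165 to 208. The liver over MIN6 ratio under TruSeq ranged from 7.01 to 7.33, and the NEXTflex ratio from 0.697 to 0.729 over TruSeq and 0.438 to 0.469 over v1.5.

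With exact alignments alone, the difference in 14 to 17 nt became 0.457 points (exact permutation p = 0.6), the liver over MIN6 ratio 6.59 under TruSeq and 1.72 under NEXTflex, the NEXTflex over TruSeq ratio 0.777 in MIN6 and 0.203 in liver, the 5′ ends called 140 of 174, and the log2 fold change at base 2469 0.064. With whole-number counts alone, the liver over MIN6 ratio was 1.85 under NEXTflex, the NEXTflex ratios were 0.833 over TruSeq and 0.527 over v1.5 in MIN6 and 0.211 over TruSeq in liver, and log2 fold changes changed sign in mt-Rnr2 (0.044), mt-Cytb (0.045), mt-Tp antisense (0.11) and the first base of mt-Rnr1 (0.65). With 31 nt and shorter alone, an alternative added after seeing the data, the liver over MIN6 ratios were 3.71 and 1.78, and the NEXTflex ratios 0.533 over TruSeq and 0.339 over v1.5 in MIN6 and 0.255 over TruSeq in liver. The tRNA share in NF-HiSeq MIN6, TS-HiSeq liver and NF-HiSeq liver was then 10.5%, 41.8% and 21%. With all deposited counts as the denominator the NEXTflex ratio in liver was 0.215. With no minimum 495 of 9451 5′ ends were called, and with a minimum of 600 counts 42 of 46, as more or fewer ends were tested. With forms without a fraction in any library, log2 fold changes changed sign in mt-Rnr2 (0.62), mt-Cytb (0.075), mt-Tp antisense (0.18) and the first base of mt-Rnr1 (1.84). By DESeq2 179 of 314 5′ ends were called. The sign also changed without TruSeq library 2 in mt-Cytb, mt-Tp antisense and the first base of mt-Tm, and without v1.5 library 3 in mt-Cytb (0.046), with ranges over left-out libraries of -0.16 to 0.066, -0.21 to 0.013 and -0.54 to 0.24. Apart from those set by fewer tests or shorter reads, the causes were not tested.

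Same-numbered TruSeq and v1.5 libraries did not deviate together (r over 5′ ends of -0.05 to 0.07), so the numbers were not taken as pairs. With the replicate number as a block, 24 genes and 227 5′ ends were called, and the mean difference in log2 RPMM was 0.65 (exact sign-flip p = 0.25, the smallest 3 pairs allow).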

Other observations

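The tRNA for valine gave a further fragment that began at its base 35, at 540 RPMM in TS-HiSeq liver, 117 RPMM in NF-HiSeq liver and 20.8 RPMM in NF-HiSeq MIN6, against at most 2.35 RPMM in a GAIIx library. A form of 38 nt with CCA made up 57.7%, 92.2% and 91.5% of its counts in that order. This 5′ end was chosen after its values were seen.

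A 5′ end at base 16111 of the minus strand, in the control region, was at 105 RPMM in NF-HiSeq liver and 16.9 RPMM in NF-HiSeq MIN6. It was at 1.42 RPMM in TS-HiSeq liver and at most 0.965 RPMM in a GAIIx library, and was also chosen after its values were seen. The first base of 12S, the start of mt-Rnr1, was at 112 and 128 RPMM in the NEXTflex libraries of MIN6 and liver, with 32 nt the commonest length in MIN6 (35%) and 33 nt in liver (32.6%), beside 81.4 RPMM in TS-HiSeq liver and 34.8 to 46.4 RPMM in the GAIIx libraries, where its commonest form was 17 nt, and was chosen after its values were seen as well.

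The 3 highest 5′ ends held 61.9% to 65.4% of mitochondrial counts in TS-GAIIx, 54% to 56.7% in v1.5-GAIIx, and 31.6%, 31.5% and 34% in NF-HiSeq MIN6, TS-HiSeq liver and NF-HiSeq liver. Of the 22 tRNA genes, 22 had counts in each GAIIx library and in TS-HiSeq liver, 18 in NF-HiSeq MIN6 and 16 in NF-HiSeq liver.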
